A study of Mus musculus with 54 samples.

Results

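The clustered protocadherins are cell adhesion proteins encoded side by side on mouse chromosome 18 in the Pcdha, Pcdhb and Pcdhg gene clusters. Members were the protein-coding rows of the count table whose Ensembl identifier carries a Pcdha, Pcdhb or Pcdhg symbol in the GRCm38 annotation. This gave 57 members of 47069 genes, with 14 in the alpha, 22 in the beta and 21 in the gamma cluster. Pcdhgb8, a polymorphic pseudogene in that annotation, was left out. RNA was measured in the cortex, striatum and cerebellum of 18 mice on a C57BL/6 background at 8 weeks of age, 54 libraries in all. Mbd5+/GT mice (n = 10) carried a gene-trap insertion in the second intron of one Mbd5 copy, which gives a hypomorphic allele, and wild-type (WT) littermates (n = 8) were the controls. The insertion came from one embryonic stem cell line and is present in every cell, so that no cell type was targeted. Litter 1 held 3 Mbd5+/GT and 3 WT females, litter 2 held 4 Mbd5+/GT males and 1 WT male, and the 3 Mbd5+/GT and 4 WT mice of litter 3 were of either sex. Each region was collected on one day, so that region and collection day cannot be told apart.

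Each neuron expresses its own small set of clustered protocadherins, chosen promoter by promoter through CTCF, cohesin and DNA methylation, and neurons use these sets to recognise their own branches. The proteins bind only identical copies on the facing membrane, and this recognition shapes dendrite arbors, axon tiling and neuron survival. The members at the end of the alpha and gamma clusters, called C types (Pcdhac1, Pcdhac2, Pcdhgc3, Pcdhgc4 and Pcdhgc5), are more distant in sequence and several are expressed steadily in many neurons rather than by random choice. In bulk tissue a sum over many neurons is measured, and fewer expressing cells cannot be told apart from less RNA per cell.

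In GRCm38 the alpha cluster lies on chromosome 18 from 36930184 to 37187661, the beta cluster from 37264938 to 37524479 and the gamma cluster from 37661793 to 37841873, all on the plus strand. Each alpha or gamma member has its own large first exon and is spliced to constant exons at the end of its cluster. All 14 alpha and 21 gamma members share these exon bases with other members, so that reads in them belong to no single gene and only reads within a member's own bases were counted. Among the beta genes 2 overlapped (Pcdhb21 and Pcdhb22) and the others shared no exon base with another member. First exons of the alpha and gamma members were richer in G and C (medians of 53.1% and 52.6%) than beta exons (median of 46.0%). Of the 50-base stretches of a first exon, a median of 14.7% recurred in another member in the alpha cluster. It was 4.26% in the beta cluster and 0.601% in the gamma cluster. This limits how well alpha members can be separated, and also single gamma members such as Pcdhga4 (39.51%), Pcdhgb2 (17.17%) and Pcdhgb1 (16.85%). With transcripts of any other gene counted, the share was 96.2% for Pcdha4, 33.8% for Pcdha7 and 33.6% for Pcdha6. Pcdhga10 lies wholly under Gm26672 and Pcdhgc3 in part under BC037039 on the other strand. Pcdhga10 had 54 to 326 counts per library. Of 118 genes of the table with no exon base free of the other strand and at least 500 free on their own, 108 had a mean count above 0 and 18 above 10. The symbol Pcdha11 is carried by 2 rows, ENSMUSG00000007440 and ENSMUSG00000102206, which were kept apart.

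Levels are given in CPM, counts scaled to the size of the library with TMM factors, and per kilobase of a member's own exon bases where members are compared with each other. Totals ran from 25295973 to 49027399 counts with a median of 29073866. Mbd5 itself, checked first, was at a median of 45.8 CPM in Mbd5+/GT against 67.9 in WT cortex, 37.2 against 46.8 in striatum and 40.3 against 54.6 in cerebellum. The log2 differences for cortex, striatum and cerebellum were -0.49 ± 0.05 (SE), -0.51 ± 0.05 and -0.34 ± 0.05, with edgeR adjusted p of 0.00012, 9.4e-05 and 0.0091, and did not pass when surrogate variables were dropped, when litter and sex took their place or, in striatum and cerebellum, without litter 2. Markers of the labelled region (cortical excitatory neurons, striatal projection neurons and cerebellar granule cells, each list summed) were under 50% of the region's median in 7 libraries, 5 of striatum and 2 of cerebellum, at 3.42% to 43.3%. The lowest was a library labelled cerebellum from an Mbd5+/GT mouse. Counts of called members are therefore also given without these 7 libraries.

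Pcdhgc3, which promotes dendrite branching in cortical neurons, had the highest level per kilobase in every region, with medians of 13.1 (cortex), 9.20 (striatum) and 20.8 (cerebellum) CPM per kb. Pcdhgc5 followed in cortex (11.7) and striatum (8.01) but was the 27th highest of the 57 members in cerebellum (1.48). With the same CPM divided by the length of the first exon alone, Pcdhgc5 passed Pcdhgc3 in cortex (20.6 against 17.2) and striatum (14.1 against 12.1). Their order there therefore depends on the length used. Pcdhac2, needed for the tiling of serotonergic axons, was the highest alpha member at 8.02, 3.51 and 7.13 in the same order of regions. The ranges of these 3 genes over the 18 libraries of cortex overlapped, Pcdhgc3 from 7.97 to 16.8, Pcdhgc5 from 5.54 to 22.4 and Pcdhac2 from 4.34 to 12.3 CPM per kb.

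The median member stood at 0.782 CPM per kb in the alpha, 1.35 in the beta and 2.10 in the gamma cluster in cortex. The matching values were 0.371, 1.01 and 1.77 in striatum and 0.574, 1.47 and 2.45 in cerebellum. Pcdhb20 was the highest beta gene in each region at 4.37, 3.65 and 4.10 CPM per kb in cortex, striatum and cerebellum. Among gamma members Pcdhgb5 was lowest in cortex (0.504) and cerebellum (0.724) and Pcdhgb4 in striatum (0.488). Pcdhb1 was near zero, with a median of 1.0, 2.0 and 1.5 counts per library in cortex, striatum and cerebellum. Pcdha4 had a median of 0 counts in each region, and only 494 of its bases are its own. Spearman's rho between gene order and level, without C types, was positive, between 0.08 and 0.54, in all 9 pairs of cluster and region and is given as a description, since neighbours share a library and an annotation.

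**Figure D1:**
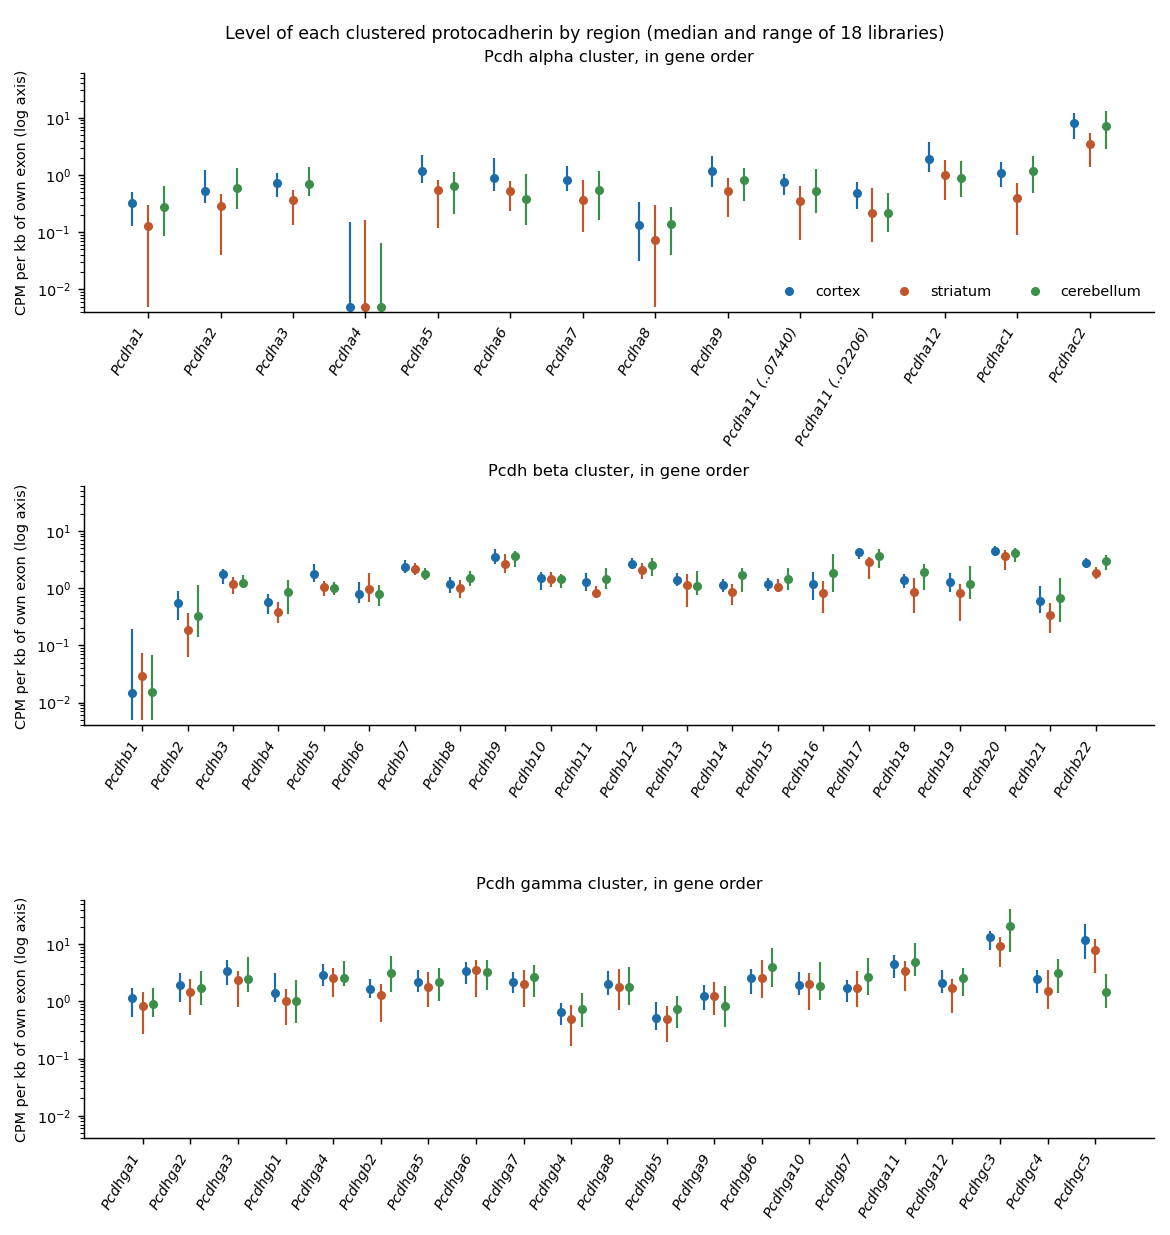
Level of each of the 57 members in CPM per kilobase of its own exon bases (log axis), by gene order, with the alpha, beta and gamma clusters in the upper, middle and lower panel. Points are medians and lines the range of 18 libraries in cortex (blue), striatum (orange) and cerebellum (green); values under 0.005 are drawn at 0.005, and the rows of Pcdha11 carry the last digits of their identifiers. Pcdhgc3 is the highest member in each region, and Pcdhgc5 is at 11.7 in cortex and 1.48 in cerebellum.

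Of all member counts, the C types took a median of 30.7% (cortex), 26.8% (striatum) and 27.9% (cerebellum). Within the gamma cluster their makeup differed between regions. Pcdhgc5 made up 19.0% to 32.4% of gamma counts in cortex and 14.6% to 28.1% in striatum, but 2.62% to 5.58% in cerebellum. Pcdhgc3 made up a median of 19.8% in cortex and 19.5% in striatum, but 36.0% in cerebellum. Pcdhgc4, required for the survival of many interneurons, made up 3.79%, 3.09% and 4.85%. A types made up 37.7%, 42.3% and 38.8% and B types 11.4%, 13.9% and 17.3%. The share of B types ran from 10.1% to 13.2% in cortex and from 15.2% to 19.7% in cerebellum, without overlap. Shares within a cluster depend on each other, and a larger share of Pcdhgc5 in cortex leaves less for every other gamma member. How far the ranges of B types separate without Pcdhgc5 was not tested. In the alpha cluster Pcdhac2 held 46.8%, 44.9% and 55.2% and Pcdhac1 5.54%, 4.65% and 7.25% in cortex, striatum and cerebellum.

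The contrast between Pcdhgc5 and the other members of its cluster was the largest regional difference among the members over the 3 pairs of regions. Pcdhgc5 was at 25.5, 52.8 and 91.0 CPM (lowest, median and highest) in Mbd5+/GT and 36.6, 56.9 and 103 in WT cortex. In striatum it was at 15.8, 38.8 and 53.5 in Mbd5+/GT and 14.4, 31.2 and 56.6 in WT mice. In cerebellum it was at 3.47, 6.80 and 13.7 in Mbd5+/GT and 3.68, 6.66 and 11.1 in WT mice. Every cortex and striatum library lay above every cerebellum library. The log2 difference was 3.08 ± 0.20 (SE) for cortex against cerebellum (adjusted p = 1.4e-19, edgeR quasi-likelihood test) and 2.32 ± 0.19 for striatum against cerebellum (adjusted p = 1.7e-15).

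Pcdhgc3 went the other way. It was at 32.5, 42.0 and 50.7 CPM in Mbd5+/GT and 26.9, 45.4 and 56.7 in WT cortex, and at 13.2, 31.99 and 44.7 and 15.7, 28.9 and 42.6 in striatum. In cerebellum it was at 24.9, 75.8 and 140 in Mbd5+/GT and 43.4, 67.4 and 125 in WT mice, so that single libraries of the regions overlapped. Its log2 difference was -0.81 for cortex against cerebellum (adjusted p = 1.5e-05) and -1.28 ± 0.16 for striatum against cerebellum (adjusted p = 8.7e-10). The ratio of Pcdhgc5 to Pcdhgc3 within a library, which does not depend on the scaling between libraries, had a median of 1.27 in cortex and 1.19 in striatum, against 0.0867 in cerebellum. Set within mice, the ratio was higher in cortex than in cerebellum in 18 of 18 mice (mean log2 difference of 3.79 ± 0.57 SD) and higher in striatum than in cerebellum in 18 of 18 (3.53 ± 0.52). Without the libraries low in markers of their region these differences were 3.92 ± 0.33 (n = 16) and 3.69 ± 0.33 (n = 13).

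**Figure D2:**
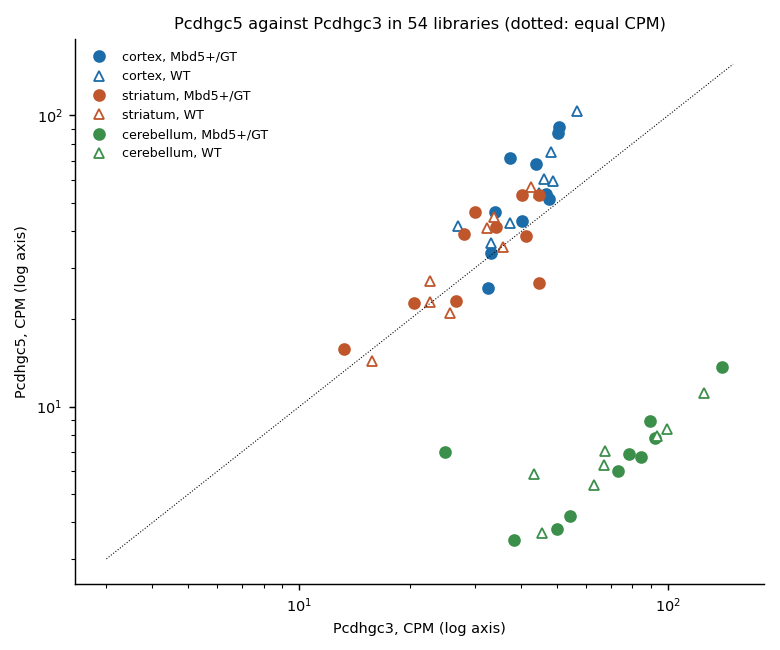
Pcdhgc5 against Pcdhgc3 in CPM (both axes logarithmic) in the 54 libraries, coloured by region, with filled circles for Mbd5+/GT and open triangles for WT mice; the dotted line marks equal CPM. Cerebellum libraries lie well below the line, and the one nearest to it is the Mbd5+/GT library lowest in markers of its region, at a ratio of 0.281.

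Between cortex and cerebellum 56 members could be tested, and a member was called at an adjusted p under 0.05 with a log2 difference of at least 1. Called higher in cortex were 4 members and called lower 0, where 16.5% and 9.04% of all 20477 genes tested were called higher and lower. Besides Pcdhgc5 these were Pcdha5 (1.12 ± 0.18), Pcdha12 (1.07 ± 0.18) and Pcdha6 (1.04 ± 0.21), all of the alpha cluster. Pcdha5 was at 1.68, 2.86 and 4.38 CPM in Mbd5+/GT and 1.86, 2.70 and 5.23 in WT cortex, and at 0.752, 1.28 and 2.59 and 0.495, 1.54 and 2.12 in cerebellum. At the adjusted p alone 14 members were higher and 11 lower in cortex, against 33.3% and 35.5% of all genes. The median log2 difference over the members was 0.03, beside -0.02 over all genes.

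The 11 lower members were 6 beta genes, 4 gamma B types and Pcdhgc3. Of the 6 gamma B types 4 were lower in cortex than in cerebellum, among them Pcdhgb2 (-0.98), Pcdhgb7 (-0.89) and Pcdhgb6 (-0.74), and 1 was higher (Pcdhgb1, 0.58). Of the 12 gamma A types 1 was higher (Pcdhga9, 0.62) and 0 were lower, with a median of 0.03. The beta genes split, with 5 higher, led by Pcdhb5 (0.85), and 6 lower, led by Pcdhb16 (-0.68) and Pcdhb4 (-0.66). Of the 11 other alpha members 6 were higher and 0 lower, while the alpha C types Pcdhac1 (-0.09) and Pcdhac2 (0.06) did not pass the test. Taken as shares of their own cluster, Pcdhgb2, Pcdhgb6, Pcdhgb7 and the A type Pcdhga11 were lower in cortex in 18 of 18 mice each. The share of Pcdhga11 had a mean log2 difference of -0.31 ± 0.13 SD. A larger Pcdhgc5 share in cortex by itself lowers the shares of all other gamma members. In the edgeR test on levels Pcdhga11 did not pass (-0.29, adjusted p = 0.099). Shares higher in 18 of 18 were those of Pcdhgc5, Pcdha5, Pcdha6, Pcdha12, Pcdha11 (ENSMUSG00000102206), Pcdhb5 and Pcdhb17.

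Cortex stood above striatum for most members. Called higher in cortex were 11 of 56 members and called lower 0, where 5.09% and 4.03% of all genes were called. At the adjusted p alone 39 were higher and 0 lower, against 30.1% and 28.9% of all genes. The difference was uneven over the clusters, with medians of 1.13 in the alpha, 0.47 in the beta and 0.31 in the gamma cluster. Of the 11 called members 10 were alpha members and the other was Pcdhb2 (1.51 ± 0.25), at 0.802, 1.42 and 2.54 CPM in Mbd5+/GT and 0.770, 1.85 and 2.50 in WT cortex against 0.174, 0.644 and 0.931 and 0.245, 0.473 and 1.02 in striatum. The leading alpha members were Pcdhac1 (1.45 ± 0.21), Pcdha5 (1.30 ± 0.19) and Pcdhac2 (1.26 ± 0.18). Pcdhac2 was at 16.8, 23.7 and 29.4 CPM in Mbd5+/GT and 13.1, 24.7 and 37.1 in WT cortex, and at 4.10, 11.5 and 16.5 and 4.37, 7.31 and 15.0 in striatum. Among gamma genes 4 A types, 2 B types and 3 C types were higher in cortex at the adjusted p alone. They were led by Pcdhgc5 (0.76), Pcdhgb1 (0.68) and Pcdhgc4 (0.62).

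Striatum was also below cerebellum for most members in this fit. Called higher in striatum was 1 member, Pcdhgc5, and called lower were 10, where 17.5% and 11.9% of all genes were called. At the adjusted p alone 4 were higher and 34 lower, against 37.3% and 38% of all genes. The called members were Pcdhac1 (-1.53 ± 0.21), Pcdhac2 (-1.20) and Pcdha2 (-1.17 ± 0.22) in the alpha cluster, Pcdhgb2 (-1.42 ± 0.18) and Pcdhgc3 in the gamma cluster, and 5 beta genes led by Pcdhb16 (-1.37 ± 0.17), Pcdhb18 (-1.28 ± 0.14) and Pcdhb4 (-1.16 ± 0.12). Pcdhb16 was at 3.37, 4.61 and 7.03 CPM in Mbd5+/GT and 1.92, 3.61 and 5.36 in WT striatum, and at 4.42, 9.58 and 17.6 and 6.07, 10.3 and 20.97 in cerebellum. Besides Pcdhgc5 the members higher in striatum at the adjusted p alone were Pcdhga9 (0.59), Pcdhb6 (0.33) and Pcdhb7 (0.27).

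**Figure D3:**
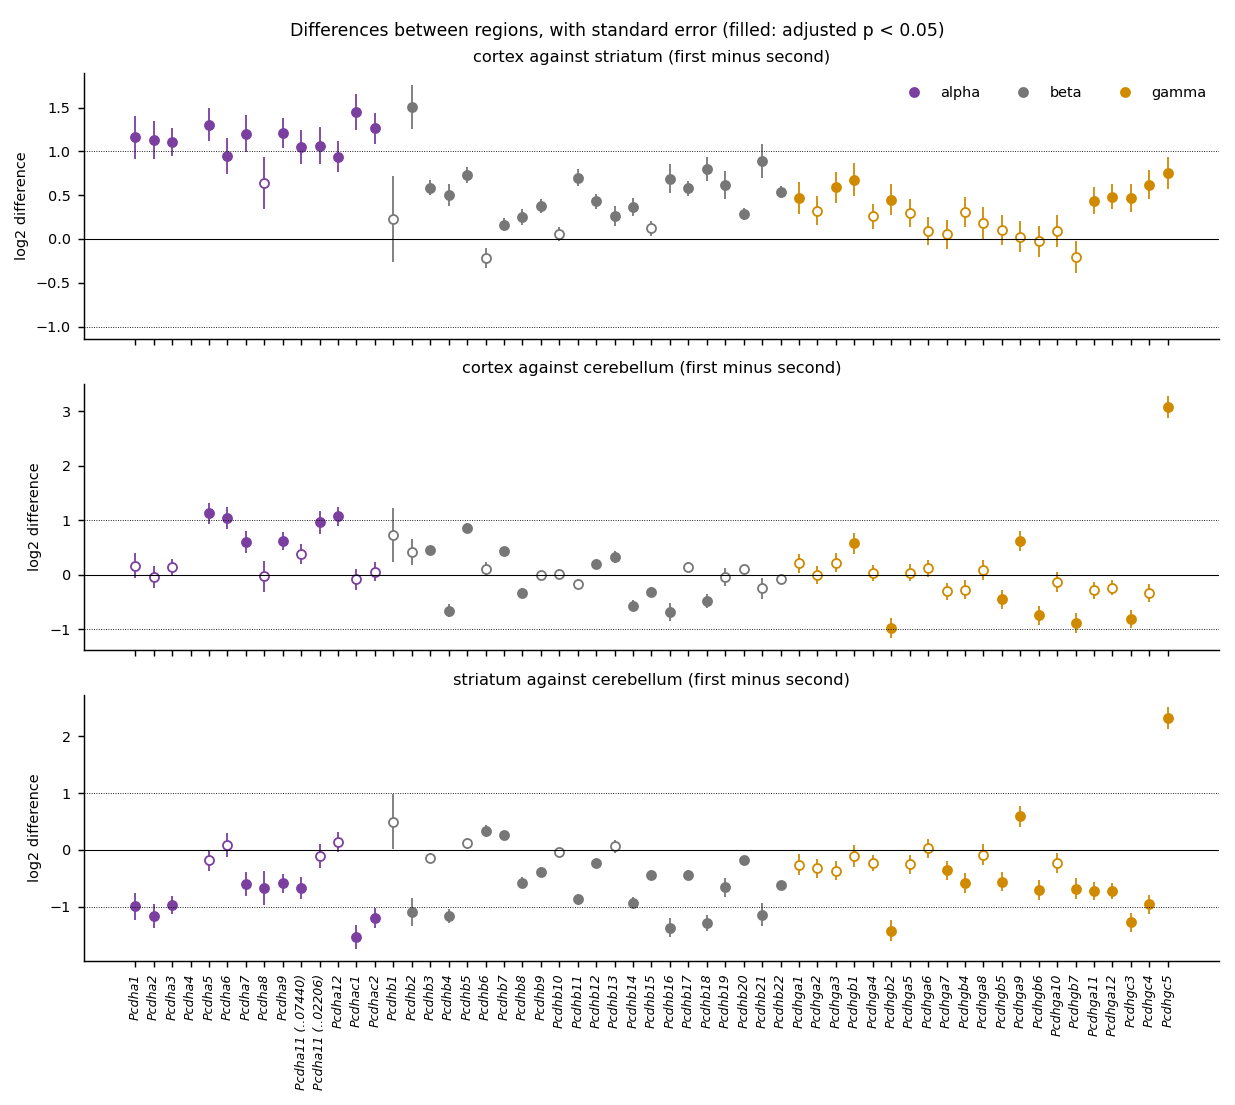
Log2 difference between regions with its standard error for the 56 members tested, in gene order, for cortex against striatum, cortex against cerebellum and striatum against cerebellum; filled points have an adjusted p under 0.05 and dotted lines mark a log2 difference of 1. Alpha members (purple) are above zero in the upper panel, beta (grey) and gamma (yellow) members lie on both sides in the middle panel, and Pcdhgc5 stands apart at 3.08 and 2.32.

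These regional levels moved with a property of the libraries. The balance of long against short transcripts (the median log2 level of the longest 20% of other protein-coding genes minus that of the shortest 20%) had regional medians of 0.28 (cortex), -0.38 (striatum) and 0.14 (cerebellum). With this balance as a covariate, 0 members were called between cortex and striatum, with 10 higher and 7 lower at the adjusted p alone and a median of -0.01. Between cortex and cerebellum 3 were called, with 15 higher and 19 lower at the adjusted p alone. Between striatum and cerebellum 2 were called, with 14 higher and 17 lower at the adjusted p alone, where 4 and 34 were without the covariate. The difference of Pcdhgc5 was 2.97 ± 0.16 for cortex and 2.92 ± 0.19 for striatum against cerebellum in this fit, and that of Pcdha5 1.01 ± 0.15 for cortex against cerebellum. Pcdhac1 (0.51 ± 0.17), Pcdhac2 (0.36 ± 0.13) and Pcdha5 (0.60 ± 0.20) were positive between cortex and striatum, with adjusted p of 0.024, 0.042 and 0.02. Since the balance itself differed between regions, a regional difference shared by the members and this property cannot be told apart. Without the 7 libraries low in own-region markers 10 members were called between cortex and striatum, 5 between cortex and cerebellum and 12 between striatum and cerebellum. The share of all genes called is not given for the fit with the covariate or without these libraries. The counts of members in them therefore cannot be set beside it.

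The clusters also differed in how far they varied between libraries of one region. From lowest to highest library, summed alpha counts spanned 29.6 to 79.8 CPM (cortex), 9.94 to 34.3 (striatum) and 16.8 to 72.8 (cerebellum). Summed gamma counts ran from 134 to 319, 73.0 to 244 and 114 to 388 CPM. Summed beta counts ran from 132 to 183, 77.1 to 143 and 114 to 214 CPM. The highest library was above the lowest by a factor of 1.39, 1.86 and 1.87 for beta, 2.70, 3.45 and 4.32 for alpha and 2.37, 3.34 and 3.40 for gamma sums, in the same order of regions. The median coefficient of variation of a member was 31.9% in the alpha, 17.8% in the beta and 27.0% in the gamma cluster in cortex, where counting alone gives 13.1%, 7.32% and 7.98%. In striatum it was 44.2%, 19.6% and 37.3%, and in cerebellum 42.0%, 19.5% and 36.8%. Beyond counting, the biological coefficient of variation placed alpha members at the 81st to 83rd and gamma members at the 77th to 80th percentile of all genes tested, and beta genes at the 45th to 55th.

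Alpha and gamma sums rose and fell together. Pearson's r over 18 libraries was 0.92 for cortex, 0.91 for striatum and 0.84 for cerebellum. Alpha and beta sums gave 0.19, 0.63 and 0.77, and gamma and beta sums 0.01, 0.59 and 0.85. Both sums of a pair come from the same library, with its depth and RNA quality, so the values are descriptions. The transcript length balance moved with the sums, at r of 0.69, 0.79 and 0.94 for alpha, 0.71, 0.68 and 0.89 for beta and 0.50, 0.63 and 0.86 for gamma in cortex, striatum and cerebellum. A balance of GC-rich against GC-poor transcripts gave r of -0.78, -0.69 and -0.88 with beta sums, 0.16, -0.36 and -0.73 with alpha sums and 0.42, -0.16 and -0.63 with gamma sums. Markers of the labelled region gave r of 0.54, 0.22 and -0.04 with alpha, -0.44, 0.52 and 0.48 with beta and 0.56, 0.44 and 0.44 with gamma sums, in the same order. Spearman's rho for the markers was 0.60, -0.07 and 0.43 with alpha, -0.43, 0.08 and 0.73 with beta and 0.54, 0.41 and 0.66 with gamma sums. In striatum and cerebellum, where single libraries lie far below the others in these markers, r and rho thus differ in size and for alpha in sign. The part of the length balance, the GC balance and the markers in the spread was not tested.

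**Figure D4:**
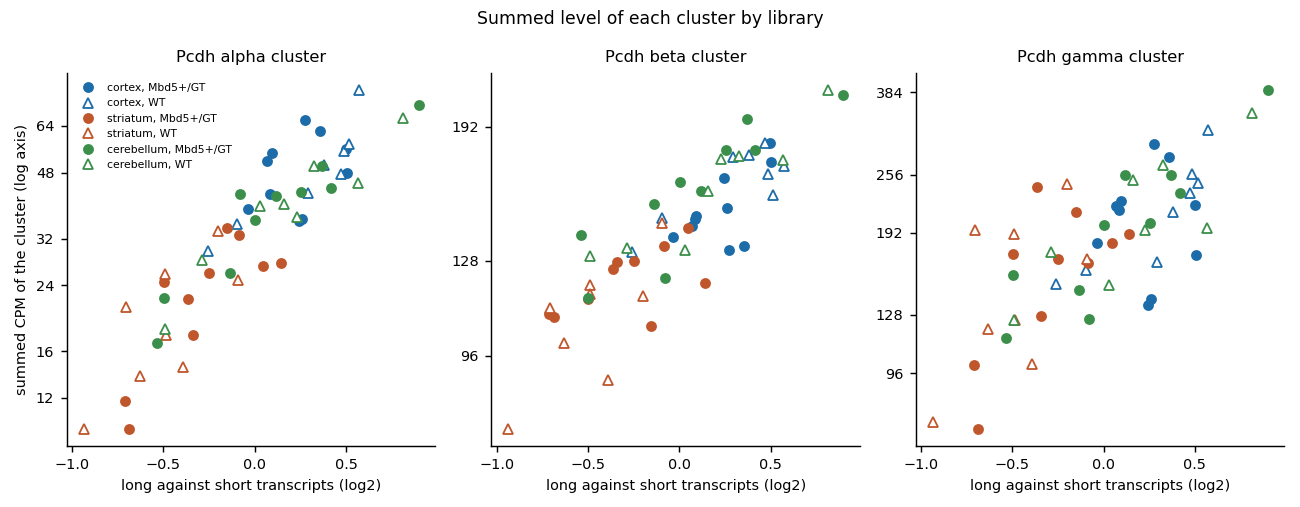
Summed CPM of the alpha, beta and gamma cluster (log axis) against the balance of long and short transcripts (log2) in the 54 libraries, coloured by region, with filled circles for Mbd5+/GT and open triangles for WT mice. The sums rise with the balance in each region, with r between 0.50 and 0.94. The ranges of Mbd5+/GT and WT libraries along it overlap in each region.

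In the comparison of Mbd5+/GT with WT mice 55 members could be tested in each region, Pcdha4 and Pcdhb1 being too low. With edgeR 0 members had an adjusted p under 0.05 in cortex, striatum or cerebellum, where 0.0107%, 0.00539% and 0.00551% of all genes did, and DESeq2 and every other alternative run also gave 0 members. At an unadjusted p under 0.05, cortex had 8 members lower and 0 higher, where 4.51% and 3.97% of all genes were lower and higher. Striatum had 1 lower and 1 higher (3.2% and 4.24% of all genes) and cerebellum 0 lower and 1 higher (1.78% and 0.964%). Over the members the median log2 difference was -0.06 (cortex), -0.02 (striatum) and 0.04 (cerebellum). In no region did the ranges of both genotypes separate for any member, and 0.0107%, 0% and 0% of all genes separated in cortex, striatum and cerebellum. Summed alpha counts had medians of 49.8 CPM in Mbd5+/GT and 49.0 in WT cortex, with 25.1 and 19.4 for striatum and 41.9 and 39.4 for cerebellum, and the ranges overlapped. Summed gamma counts had medians of 217 and 223, 171 and 147, and 201 and 196 CPM, and summed beta counts 146 and 168, 122 and 113, and 160 and 166 CPM.

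Of the 8 cortex members 7 were beta genes, the other being Pcdhga9 (-0.28 ± 0.13, unadjusted p = 0.044). Pcdhb10 was at 2.67, 3.83 and 4.65 CPM in Mbd5+/GT and 3.73, 4.63 and 5.39 in WT cortex (-0.30 ± 0.11, adjusted p = 0.49). Pcdhb18 was at 5.12, 5.94 and 9.03 against 5.32, 8.05 and 8.68 (-0.17 ± 0.07, adjusted p = 0.50). Pcdhb12 was at 6.48, 7.97 and 9.48 against 7.57, 9.07 and 10.2 (-0.16 ± 0.07, adjusted p = 0.54). The genotypes overlapped for all 3. The GC balance had a median of 0.02 in Mbd5+/GT and -0.23 in WT cortex and the length balance 0.25 and 0.43. Summed markers of striatal projection neurons had a median of 393 CPM (184 to 841) in Mbd5+/GT and 859 (117 to 1293) in WT cortex, and those of choroid plexus 292 (7.39 to 1268) and 64.5 (12.6 to 237). The part of these in the beta values was not tested. Without litter 2, which holds 1 WT mouse, 0 members were lower and 8 higher in cortex at an unadjusted p under 0.05. The share of all genes in that run is not given, so that these counts cannot be set beside it.

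In striatum Pcdhga5 was at 2.05, 4.51 and 6.29 CPM in Mbd5+/GT and 2.22, 4.69 and 8.22 in WT mice (-0.34 ± 0.11, adjusted p = 0.63). Pcdhgc4 was at 2.57, 5.38 and 12.1 against 3.15, 5.22 and 6.06 (0.20 ± 0.09, adjusted p = 0.64), and its difference was -0.09 with the length balance as a covariate. Pcdhb4 was at 0.976, 1.76 and 2.12 against 0.911, 1.26 and 1.80 (0.35 ± 0.17, adjusted p = 0.69). The length balance had a median of -0.30 in Mbd5+/GT and -0.49 in WT striatum and the GC balance 0.33 and 0.60, with overlapping ranges. The part of these in the striatum values was not tested. In cerebellum Pcdhb6 was at 2.48, 3.03 and 4.29 against 1.84, 2.87 and 3.38 (0.21 ± 0.10, adjusted p = 1.00), followed by Pcdhb22 (0.12 ± 0.06) and Pcdha8 (0.46 ± 0.27), which had unadjusted p of 0.067 and 0.11. No member had an unadjusted p under 0.05 in more than 1 region. For cortex, striatum and cerebellum, Pcdhgc3 differed by -0.03 ± 0.10, -0.01 ± 0.09 and -0.06 ± 0.13. Pcdhgc5 differed by -0.14 ± 0.16, 0.03 ± 0.13 and 0.04 ± 0.16, with overlapping ranges in each region.

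**Figure D5:**
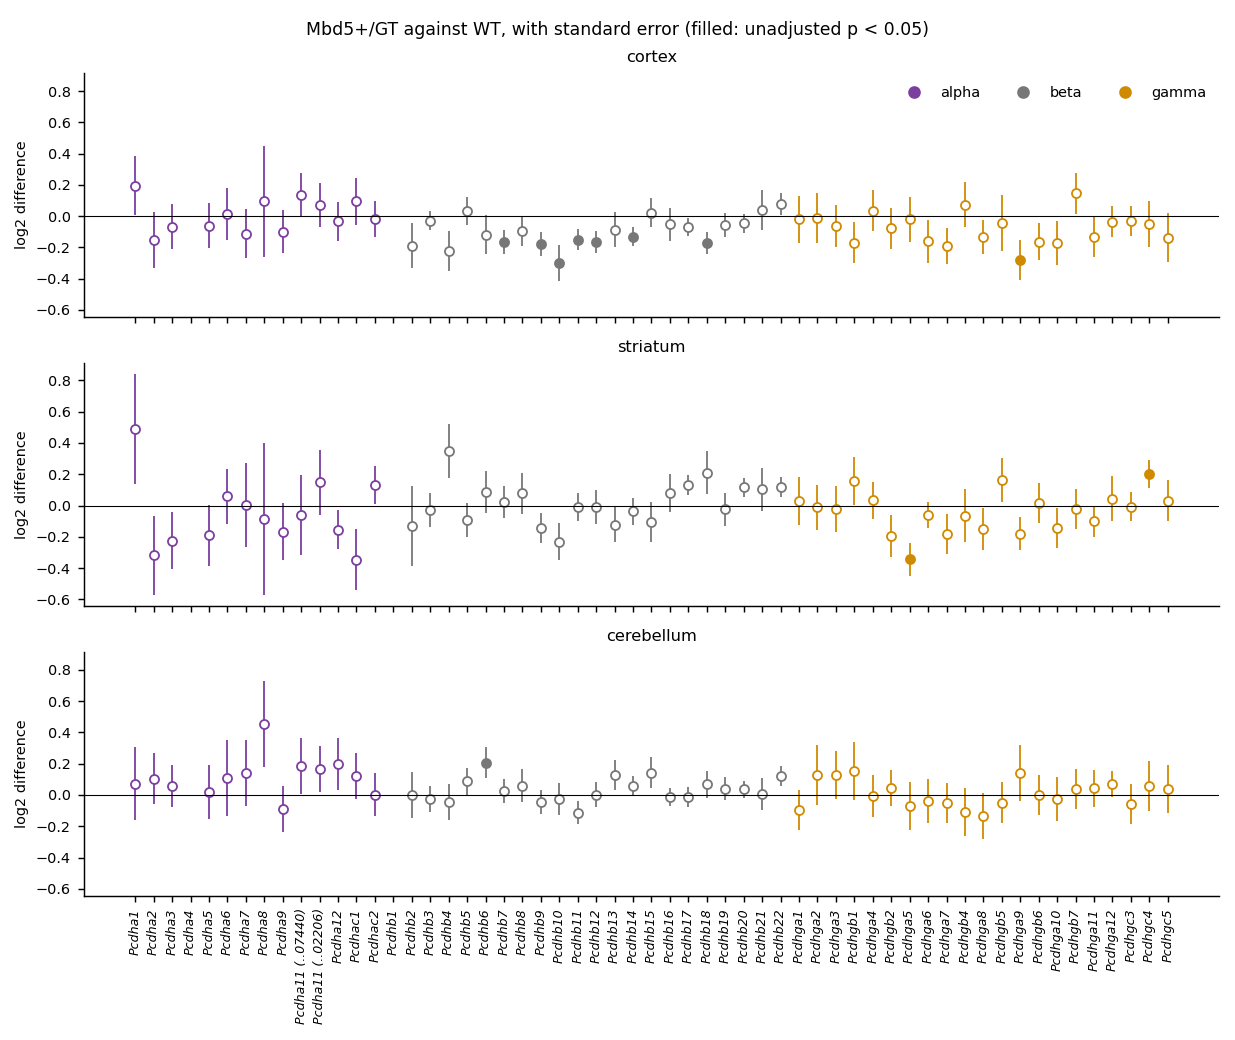
Log2 difference of Mbd5+/GT against WT mice with its standard error for the 55 members tested in cortex, striatum and cerebellum, in gene order; filled points have an unadjusted p under 0.05. Points lie on both sides of zero, the largest error, 0.49, belongs to Pcdha8 in striatum, and the filled points are 8 in cortex, 2 in striatum and 1 in cerebellum.

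A genotype effect that differed between regions was called for 0 members in any pair of regions. At an unadjusted p under 0.05 it was lower in cortex than in striatum for 5 beta genes (3.23% of all genes) and for 0 members in the other pairs (1.11% and 2.68% of all genes in either direction). The lowest p belonged to Pcdhb18 (-0.74 ± 0.27, adjusted p = 0.99), which was at 2.72, 4.84 and 7.72 CPM in Mbd5+/GT and 1.82, 2.85 and 6.55 in WT striatum. This fit had no surrogate variables, unlike the fits by genotype within a region. Those gave a smaller contrast for Pcdhb18, at -0.17 in cortex and 0.21 in striatum. For the other pairs the lowest were Pcdhb10 for cortex against cerebellum (-0.27 ± 0.16) and Pcdhb17 for striatum against cerebellum (0.32 ± 0.17), with unadjusted p of 0.090 and 0.056. Without the 7 libraries low in own-region markers 1 member was under 0.05 for cortex against striatum.

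Genes that set or use protocadherin choice were followed as lists. Of 23 genes of promoter choice and chromatin, such as Ctcf, cohesin subunits and DNA methyltransferases, 0 were called by genotype in any region. At an unadjusted p under 0.05 cortex had 1 lower and striatum 3 higher, where 4.51% and 4.24% of all genes were. Between cortex and cerebellum 0 were called higher and 3 lower in cortex (16.5% and 9.04% of all genes): Dnmt3b (-1.54 ± 0.13), the methyltransferase that marks protocadherin promoters in the embryo, Tet1 (-1.30 ± 0.14) and Zfp110 (-1.05 ± 0.08). Between striatum and cerebellum 0 were called higher and 5 lower in striatum (17.5% and 11.9% of all genes), the same 3 with Stag2 (-1.33 ± 0.11), a cohesin subunit, and Nipbl (-1.25 ± 0.14), which loads cohesin. At the adjusted p alone 0 were higher and 19 lower in cortex than in cerebellum, against 33.3% and 35.5% of all genes. In striatum 0 were higher and 21 lower than in cerebellum, against 37.3% and 38% of all genes. The list medians were -0.53 and -0.75, beside -0.02 and 0.00 over all genes. Between cortex and striatum 0 were called. At the adjusted p alone 15 were higher and 1 lower in cortex, against 30.1% and 28.9% of all genes. The list's median was 0.31 beside 0.00 over all genes. Of 20 genes of partners and signalling 0 were called by genotype. At an unadjusted p under 0.05, 4 were lower in cortex and 2 higher in striatum (4.51% and 4.24% of all genes). Called higher in cortex than in cerebellum were 5 and lower 0 (16.5% and 9.04% of all genes), led by Ptk2b (6.33 ± 0.17), a kinase bound by protocadherin tails. Wasf1 (1.22 ± 0.07), of the WAVE complex that acts on actin, was also among them.

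Non-clustered protocadherins lie outside the 3 clusters and are not chosen promoter by promoter. Of 12 such genes 9 were called higher and 0 lower in cortex than in cerebellum, among them Pcdh8 (3.13 ± 0.31) and Pcdh10 (2.34 ± 0.14), with a list median of 1.70, where 16.5% and 9.04% of all genes were called. Of the clustered members, 4 of 56 were called higher in the same comparison, with a median of 0.03. By genotype 0 of the 12 were called. At an unadjusted p under 0.05 cortex had 3 lower and striatum 1 higher (4.51% and 4.24% of all genes). Of 17 genes flanking the clusters 0 were called by genotype in any region. At an unadjusted p under 0.05 striatum had 1 higher and 1 lower (4.24% and 3.2% of all genes) and the other regions 0. At the adjusted p alone 7 of the 17 were higher and 8 lower in cortex than in cerebellum, against 33.3% and 35.5% of all genes. With a log2 difference of at least 1, 2 were called lower (9.04% of all genes). These were Taf7 (-1.04 ± 0.06), a subunit of general transcription factor TFIID, and Slc25a2 (-1.38 ± 0.22), a mitochondrial carrier, which lie between the beta and gamma clusters.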

How the data were processed

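The authors prepared polyA RNA libraries and deposited raw counts per gene, made with STAR 2.4.2 GeneCounts on GRCm38 with Ensembl 83 after FastQC 0.10.1, as their methods and processing notes give. The strand column used is not given in the sources used here. Symbols, coordinates and exon bases came from GENCODE M21, also on GRCm38. The members and gene lists were chosen with earlier results of these data known. Totals of at least 25295973 counts left low members with few counts. The p-values by genotype within a region measure the spread between mice. Those between regions and for the interaction measure the spread between libraries, with libraries of the same mouse taken as independent in the main fit.

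Genes were kept where at least 8 libraries held over 4 counts, TMM-scaled and tested with edgeR 4.0.16 (robust quasi-likelihood, Benjamini-Hochberg adjustment; R 4.3.3). Genotype was fitted within a region with surrogate variables (sva 3.50.0; 4 in cortex, 4 in striatum, 2 in cerebellum). Regions and the genotype by region interaction were fitted on all 54 libraries in a design of 6 groups, without surrogate variables. DESeq2 1.42.0 was an alternative. The scripts were tested on simulated data. Named members were those of lowest unadjusted p by genotype and of largest difference past the threshold between regions, with C types always given; other members were chosen after their values were seen. Samples with the same mouse number came from the same animal, with a median correlation of deviations of 0.0911 (cortex and striatum), 0.164 (cortex and cerebellum) and 0.0618 (striatum and cerebellum). The balance covariate and the removal of libraries low in markers were chosen after seeing the data.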

Additional observations from a re-analysis of the deposited data

Results flagged for a closer look

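A library was singled out where its gap to the nearest other library of its group was past Dixon's 95% limit, which chance alone does for about 1 in 20 groups (5%). Of 178 groups tested 16 (8.99%) were. In cortex these were Pcdha12 at 9.29 CPM in a WT mouse (group median 4.32), Pcdha6 at 4.56 in an Mbd5+/GT mouse (2.08) and Pcdhb2 at 2.54 in an Mbd5+/GT mouse (1.42). In striatum they were Pcdhb16 at 7.03 in an Mbd5+/GT mouse (4.61) and Pcdha8 at 0.731 in a WT mouse (0.138).

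In cerebellum 3 values belonged to the same Mbd5+/GT mouse, with Pcdhb2 at 3.04 CPM (group median 0.887), Pcdhgb2 at 16.9 (8.18) and the gamma sum at 388 (201). The ratio of Pcdhgc5 to Pcdhgc3 was 0.281 in an Mbd5+/GT cerebellum library (group median 0.0863) and 0.135 in a WT one (0.0874). Both libraries were among the 7 low in markers of their region, and the part of this in the ratio was not tested.

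The other values rest on a few counts: Pcdha4 at 0.0389 CPM in Mbd5+/GT and 0.0754 in WT cortex, 0.0801 in Mbd5+/GT striatum and 0.0313 in Mbd5+/GT cerebellum, and Pcdhb1 at 0.299 in Mbd5+/GT and 0.490 in WT cortex.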

How the results depend on the processing

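Of 198 counts of members under alternatives 154 were within 1.5 times the main count and 44 were not. Of 322 values of single members 235 kept direction and side of the threshold, 82 lost the threshold, 4 gained it and 1 reversed, Pcdhgc4 in striatum by genotype, from 0.20 to -0.0894 with the length balance as a covariate. No alternative called a member by genotype. Members lower in Mbd5+/GT cortex at unadjusted p (8) numbered 2 without surrogate variables, 1 with litter and sex, 3 without a filter, 2 with at least 10 counts in every library, 0 without litter 2 and 3 with the balance, and members higher (0) numbered 2 with at least 10 counts and 8 without litter 2. In striatum the lower (1) numbered 0 without surrogate variables, with litter and sex, without litter 2 and with the balance, and 2 without libraries low in markers. The higher (1) numbered 3 without surrogate variables, 2 with litter and sex, without a filter and without the repeated libraries, and 0 with at least 10 counts, with the balance and without libraries low in markers. In cerebellum the higher (1) numbered 0 without surrogate variables, with litter and sex, without a filter, without litter 2, with the balance and without libraries low in markers. Between cortex and striatum the called members (11) numbered 2 with at least 10 counts and 0 with the balance. At the adjusted p alone the higher (39) numbered 23 in Mbd5+/GT mice only and 10 with the balance, and the lower (0) 1 in Mbd5+/GT mice only, 7 with the balance and 1 without libraries low in markers. Between cortex and cerebellum the higher (14) numbered 9 in Mbd5+/GT mice only, and the lower (11) 7 in WT mice only and 19 with the balance. Between striatum and cerebellum the called members (11) numbered 7 in Mbd5+/GT mice only and 2 with the balance, the higher (4) 14 and the lower (34) 17 with the balance. Genotype effects that differed between cortex and striatum at unadjusted p (5) numbered 2 with the balance and 1 without libraries low in markers, and between striatum and cerebellum (0) 1 with DESeq2 size factors and 1 with the balance. Where an alternative moved a count the cause was not tested, and the share of all genes passing is not given for the alternatives. With the mouse as a replicate block 11, 5 and 10 members were called between cortex and striatum, cortex and cerebellum, and striatum and cerebellum, and the block changed no other count by over 1.5 times. Low counts limit Pcdha4, Pcdhb1 and Pcdha8.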
